A study of Mus musculus with 2 samples.

Results

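The genes described here form the axis through which leukaemia inhibitory factor (LIF) signals: the ligand Lif, the receptor chains Lifr, Il6st and Osmr, the kinases Jak1 and Jak2, the transcription factor Stat3, and Socs3, Pim1 and Pim3, which Stat3 can induce. They were chosen by name, through the RefSeq accession printed for each array probe. Of the 10 listed genes, 8 had 1 probe each, out of 10149 genes named on the array, and Il6st and Stat3 were not analysed here. RNA came from 2 samples of EB5 mouse embryonic stem (ES) cells, labelled siKlf4/EB5 #1 and #2, both grown feeder-free on gelatin and transfected with siRNA against Klf4 plus the plasmid pCAGEGFP-IP. They were kept for 24 h after transfection and for 24 h more under puromycin, which enriches cells that took up the plasmid. ES cell RNA carried Cy3 and was hybridised on 2-colour arrays against Universal Mouse Reference RNA in Cy5, a pool of total RNA from 11 cultured mouse lines of embryo, fibroblast, kidney, liver, macrophage, B- and T-lymphocyte, mammary, muscle, skin and testis origin. ES cells that did not receive the siRNA are not part of the comparison, so every ratio compares siKlf4 ES cells with that pool and none measures the effect of the siRNA. The labels do not say whether #1 and #2 were separate cultures, so the spread between the arrays, and each p-value built on it, may be technical.

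As background, LIF binds the LIF receptor chain, which pairs with the shared chain gp130, the product of Il6st. The pair activates Janus kinases bound to the receptor, which phosphorylate Stat3, and Stat3 then enters the nucleus. In mouse ES cells this route is known for holding cells in self-renewal. Socs3 is a feedback inhibitor that binds gp130 and the kinases, and the Pim genes encode serine/threonine kinases that promote survival and growth. Osmr encodes the oncostatin M receptor chain, which pairs with the same gp130.

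Each gene was measured by a single 60-base oligonucleotide, and the probes behind the 4 clearest ratios and the Lifr value are identified here by their first 30 bases, 5′ to 3′, as deposited.
Osmr: attttcttgtcaatggacttctcactggaa
Jak1: ctcaatgtctattcagtgatagtacaagca
Socs3: tgtctgaagatgcttgaaaaactcaaccaa
Pim3: gggtggggttgtataagttcaaaagtgtga
Lifr: gagggtggtcctttacaaacttcttccaga
The accessions printed for them are NM_011019.1, NM_146145.1, NM_007707.2, NM_145478.1 and NM_013584.1. A transcript form that lacks the stretch a probe matches adds nothing to its value.

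The axis was split. Against the pool, Osmr and Jak1 RNA were lower in siKlf4 ES cells by both call rules given below. Socs3 and Pim3 RNA were higher by the scanner error model only, each under 2-fold. Jak2 leaned lower but was called by neither rule, while Lif and Pim1 lay close to the pool. Lifr could not be placed, because its probe was no brighter than spots without mouse sequence. A call here means an adjusted p under 0.05 (limma, Benjamini-Hochberg over 21028 probes) with the same sign on both arrays and a log2 ratio of 1 or more in size, that is 2-fold. By that rule 2 of the 8 genes, Osmr and Jak1, were lower, where 5.19% of all probes were, and 0 were higher, where 5.08% of all probes were (10.3% in either direction). At an unadjusted p under 0.05 and no limit on size, limma gave 3 higher and 3 lower, where 33.5% of all probes were higher and 33.6% lower. The same 3 and 3 passed the adjusted threshold without the size limit, where 31.6% of probes were higher and 31.4% lower (63.1% together), so those counts are near the background. That looser threshold was also passed by 115 of 162 negative control spots, which reached log2 ratios of up to 0.52. The scanner software's own error model, which gives each spot a p from its pixel and background noise, called none of the 162 control spots at p under 0.01 on both arrays, and its smallest p at any of them was 0.684. By that model Socs3 and Pim3 were higher, against 8.39% of probes, and Osmr and Jak1 were lower, against 6.42% (14.8% in either direction). In whole-cell RNA of this kind, fewer cells expressing a gene and less RNA per cell cannot be told apart.

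**Figure D1:**
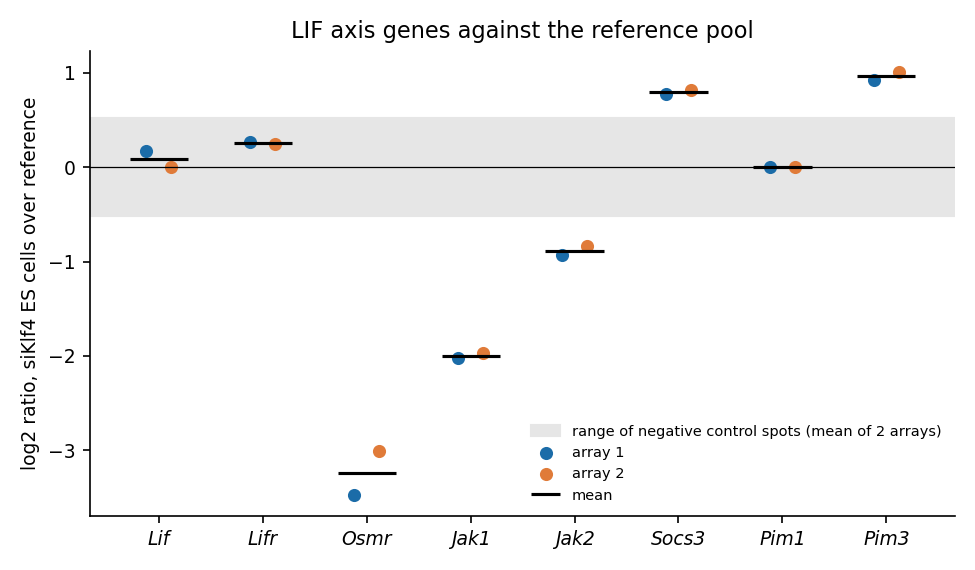
Log2 ratio of siKlf4 ES cells over the reference pool for the 8 measured genes (vertical axis), with a point for each array and a bar at the mean. The grey band spans the largest ratio seen at a negative control spot, 0.52 in either direction; Osmr, Jak1 and Jak2 lie below it, Socs3 and Pim3 above it, and Lif, Lifr and Pim1 inside it.

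Among the ligand and receptors, Osmr had the largest ratio of the axis. Its signal above local background was 249.5 and 388 units in the ES cells on arrays 1 and 2, against 2713 and 2821 in the reference. The log2 ratios were -3.47 and -3.00, with a mean of -3.24 ± 0.33 (SD, n = 2), which is 9.42-fold lower (limma, adjusted p = 7.12e-06). The error model called Osmr lower on both arrays. Both arrays were low, but they differed from each other by 0.46 on the log2 scale, more than for 99.8% of all probes. The ES signals stood only at 1.61 and 2.18 times the limit set by negative control spots (their 95th percentile), so the size of the fold depends on how background is removed: without background correction the log2 ratio was -2.10. Fewer than 1% of probes had a lower ratio than Osmr, which stood at the 0.366th percentile.

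Lifr, the receptor chain that binds LIF itself, gave 153 and 162 units in the ES cells and 39.8 and 43.6 in the reference. All of these values lay below the negative control limits, 155 and 178 units for Cy3 and 40.9 and 58.4 for Cy5. Its log2 ratio of 0.26 ± 0.017 (SD, n = 2) passed limma (adjusted p = 0.00205). The error model called it on neither array. Lifr RNA was not detectable with this probe in either RNA, so no fold is given.

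Lif gave 192 and 201 units in the ES cells, 1.24 and 1.13 times the limit, and 79.2 and 93.4 in the reference. Its log2 ratios of 0.17 and 0.00 averaged 0.09 ± 0.12 (SD, n = 2), with a 95% interval from -0.04 to 0.22 and no call (limma, adjusted p = 0.188). When arrays were centred on their median rather than by loess, Lif stood at 0.25 and passed limma (adjusted p = 0.00661), inside the range of the negative control spots.

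**Figure D2:**
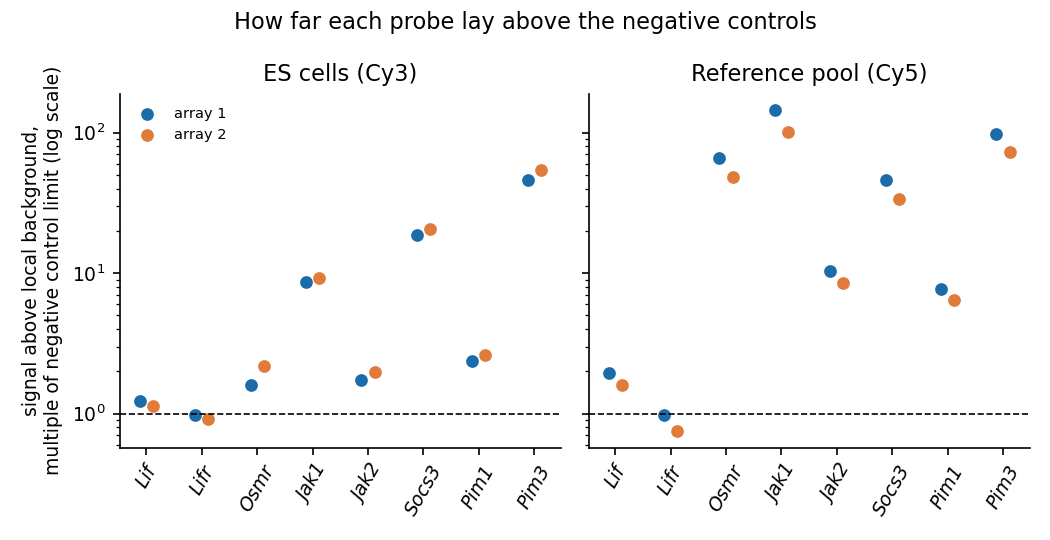
Signal above local background for each gene as a multiple of the negative control limit of that array and channel (log axis; dashed line at the limit), in the ES cell channel and the reference channel, with a point per array. Lifr lies under the line in both channels and Lif just over it, while Pim3 and Socs3 lie well over it in both; heights of different probes are not comparable as RNA levels.

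The kinases divided. Jak1, the Janus kinase on which gp130 signalling mainly relies, gave 1338 and 1638 units in the ES cells and 5957 and 5929 in the reference. The log2 ratios of -2.02 and -1.97 hardly differed and averaged -2.00 ± 0.035 (SD, n = 2), so that Jak1 RNA was 4.00-fold lower in the siKlf4 ES cells (limma, adjusted p = 1.42e-06). Here the ES signal was 8.63 and 9.22 times the negative control limit, so Jak1 RNA was detected in the ES cells on both arrays. Jak2, which also associates with gp130, gave 267 and 350 units in the ES cells against 422 and 498 in the reference. Its log2 ratio was -0.88 ± 0.063 (SD, n = 2), 1.85-fold lower, and passed limma without the size limit (adjusted p = 2.26e-05). The error model passed Jak2 on array 1 but not on array 2, which is no call. Without background correction the log2 ratio of Jak2 was -0.42. The other 2 Janus kinases lay elsewhere: Tyk2 stood at a log2 ratio of 0.57 ± 0.034 (SD, n = 2; limma, adjusted p = 8.75e-05) and was called higher by the error model, while Jak3, dim in both channels, stood at 0.06 and was not called. The 95% intervals of Jak1 (-2.09 to -1.90), Jak2 (-0.99 to -0.78) and Tyk2 (0.48 to 0.67) did not overlap. They hold only the spread between the arrays, and the Jak2 value without background correction lay outside its own interval.

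Of the 3 genes that Stat3 can induce, Socs3 and Pim3 were above the pool and Pim1 was level with it. Socs3, the feedback inhibitor, gave 2881 and 3675 units in the ES cells and 1870 and 1955 in the reference. Its log2 ratio was 0.79 ± 0.025 (SD, n = 2), or 1.73-fold higher (limma, adjusted p = 2.29e-05). The error model also called Socs3 higher on both arrays. Array values of 0.78 and 0.81 were both beyond the range of the negative control spots. Pim3 gave 7129 and 9632 units in the ES cells and 4020 and 4251 in the reference. Its log2 ratios of 0.92 and 1.01 averaged 0.97 ± 0.059 (SD, n = 2), 1.95-fold higher and just under the size limit of 1 (limma, adjusted p = 1.57e-05). It was called higher by the error model on both arrays. Its paralogue Pim1 gave 368 and 464 units in the ES cells and 313 and 374 in the reference, a log2 ratio of 0.00 on both arrays, with a 95% interval from -0.09 to 0.09 (limma, adjusted p = 0.953). Pim1 was above the negative control limit in both channels, and its interval, which holds array spread only, did not overlap that of Pim3.

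Leaving out Lifr, which has no place, the genes ran in order of log2 ratio Osmr, Jak1, Jak2, Pim1, Lif, Socs3 and Pim3. Neighbours from Osmr to Pim1 had 95% intervals that did not overlap. These intervals hold only the spread between 2 arrays, not the effect of processing. Without background correction Osmr stood at -2.10 and Jak2 at -0.42, each outside its interval. When the negative control spots were added to the fit, 115 of 162 of them passed an adjusted p under 0.05 (limma). The intervals of Pim1 and Lif overlapped. Those of Socs3 (0.70 to 0.89) and Pim3 (0.86 to 1.07) also overlapped, so their order is not settled.

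Socs3 was the only listed gene with a match to a DNA pattern bound by Stat factors in the short window searched. It is printed for that reason. The pattern searched was TTCNNNGAA, which reads the same on both strands, in the 250 bases before each RefSeq transcription start (GRCm38.p6). It was found in 1 of 12 windows of the 10 listed genes, that of Socs3, and in 7.02% of all 32851 windows; the tighter form TTCCNGGAA, contained in the first, was in none of the 12 and in 0.913% of all. The Socs3 window, chr11:117969367-117969616 on the minus strand, is given 5′ to 3′ with the match in capitals, 154 to 146 bases before the start.
Socs3: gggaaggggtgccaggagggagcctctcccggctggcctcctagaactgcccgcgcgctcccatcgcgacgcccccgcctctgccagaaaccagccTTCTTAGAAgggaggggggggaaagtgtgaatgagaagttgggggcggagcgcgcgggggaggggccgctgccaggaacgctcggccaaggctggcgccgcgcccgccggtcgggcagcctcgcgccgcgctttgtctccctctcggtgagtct
A match is a description of these letters, and 1 window of 12 is near the share over all windows. Pim3, the gene with the highest ratio of the axis, had no match in its window.

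The wider pathway was read from lists of related genes, described by counts only. Among other ligands and receptors of the interleukin-6 family, 0 of 13 measured genes were at least 2-fold higher or lower by limma. Of all probes 10.3% were, in either direction. At limma's unadjusted p under 0.05 with no size limit 0 were higher and 8 lower, where 33.5% and 33.6% of all probes were. The error model called 1 lower, where 6.42% of all probes were. That gene was Il11ra1, the interleukin-11 receptor chain, at a log2 ratio of -0.85 ± 0.099 (SD, n = 2); centred on the array median it stood at -1.08, which made it 1 lower gene at 2-fold. The ligand gene Il6 stood at -0.76, Il27ra at -0.29 and Ebi3 at -0.25, none of them called by the error model. The list's median log2 ratio was -0.17, against -0.01 for all probes.

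Besides Tyk2, the list of other JAKs and STATs held Stat5b, a relative of Stat3 used by growth hormone and cytokine receptors, which was 2.02-fold lower (log2 ratio -1.02 ± 0.030, SD, n = 2; limma, adjusted p = 9.97e-06). It was the single gene of 7 at 2-fold, and it fell short of 2-fold without background correction (-0.53) and, narrowly, with the authors' processed signals and the deposited table (both -0.99). Stat4, used by interleukin-12 receptors, stood at 0.21 and was not called by the error model. Over all probes 5.08% were at least 2-fold higher and 5.19% lower. At limma's unadjusted p under 0.05 with no size limit 3 were higher and 3 lower, where 33.5% and 33.6% of all probes were. The error model called 1 higher and 1 lower, where 8.39% and 6.42% of all probes were. The list's median was 0.06.

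Of 13 inhibitors of JAK-STAT signalling, 1 was at least 2-fold higher and 1 lower, where 5.08% and 5.19% of all probes were. At limma's unadjusted p under 0.05 with no size limit 5 were higher and 6 lower, where 33.5% and 33.6% of all probes were. The error model called 1 higher and 1 lower, where 8.39% and 6.42% of all probes were. The list's median was -0.03. Socs2, which restrains growth hormone signalling, was the higher gene at 1.23 ± 0.014 (SD, n = 2), a ratio above that of Socs3. Without background correction Socs2 and Socs3 were level, both at 0.73. Ptprc, the leukocyte phosphatase CD45, was the lower gene, but it did not clear the control limit in Cy3 on either array. Its fitted log2 ratio was -2.18 and, without background correction, -0.82, so no fold is given. Socs5 stood at -0.81 and the phosphatase gene Ptpn6 at -0.53, each passing the error model on at most 1 array.

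Genes that link the receptor to Ras-Erk and PI3K signalling gave 2 of 16 at least 2-fold higher and 0 lower by limma. Over all probes 5.08% were higher and 5.19% lower at that size. At an unadjusted p under 0.05 without the size limit 10 were higher and 4 lower, where 33.5% and 33.6% of all probes were. By the error model 3 were higher and 0 lower, where 8.39% and 6.42% of all probes were. Gab1, a docking protein that recruits PI3K and Shp2, stood at a log2 ratio of 1.47 ± 0.0051 (SD, n = 2). The Src-family kinase Yes1, known to be active in ES cells, stood at 1.00 ± 0.046, and Nras at 0.78 ± 0.067. Akt1 stood at -0.55 and was not called by the error model. Without background correction Gab1 (0.79) and Yes1 (0.69) were under 2-fold, and Yes1 was also under it with median centring (0.77) and, narrowly, with background from the negative control spots (0.998). The list's median was 0.18.

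The longest list held 19 other genes reported as LIF or Stat3 targets, at a median of -0.01. By limma 2 were at least 2-fold higher and 6 lower, where 5.08% and 5.19% of all probes were. At limma's unadjusted p under 0.05 with no size limit 8 were higher and 9 lower, where 33.5% and 33.6% of all probes were. The error model called 3 higher and 6 lower, where 8.39% and 6.42% of all probes were. The lower genes were the largest ratios: the immediate-early factors Egr1 (log2 ratio -5.32) and Fos (-2.93), and the C/EBP factors Cebpd (-3.87) and Cebpb (-3.27). In the ES cells Egr1, Fos and Cebpd stood at only 1.38 to 1.80 times the control limit, so their sizes depend on how background is removed. Without background correction Egr1 stood at -3.91, Fos at -1.77, Cebpd at -2.40 and Cebpb at -2.83. Other genes, chosen after their values were seen, were Ier3 at -2.16 and the cyclin gene Ccnd1 at -1.21 (-0.35 at a dimmer probe) on the lower side. On the higher side these were the adhesion molecule gene Icam1 at 2.10 and the pluripotency factor gene Klf5 at 1.95. Klf4, the gene the siRNA was aimed at, gave 1826 and 2542 units in the ES cells and 1518 and 1603 in the reference, a log2 ratio of 0.51 ± 0.11 (SD, n = 2); without cells lacking the siRNA this does not check the knockdown. Socs3 and Pim3 stood above the pool in RNA where Egr1, Fos, Cebpb and Cebpd stood below it.

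**Figure D3:**
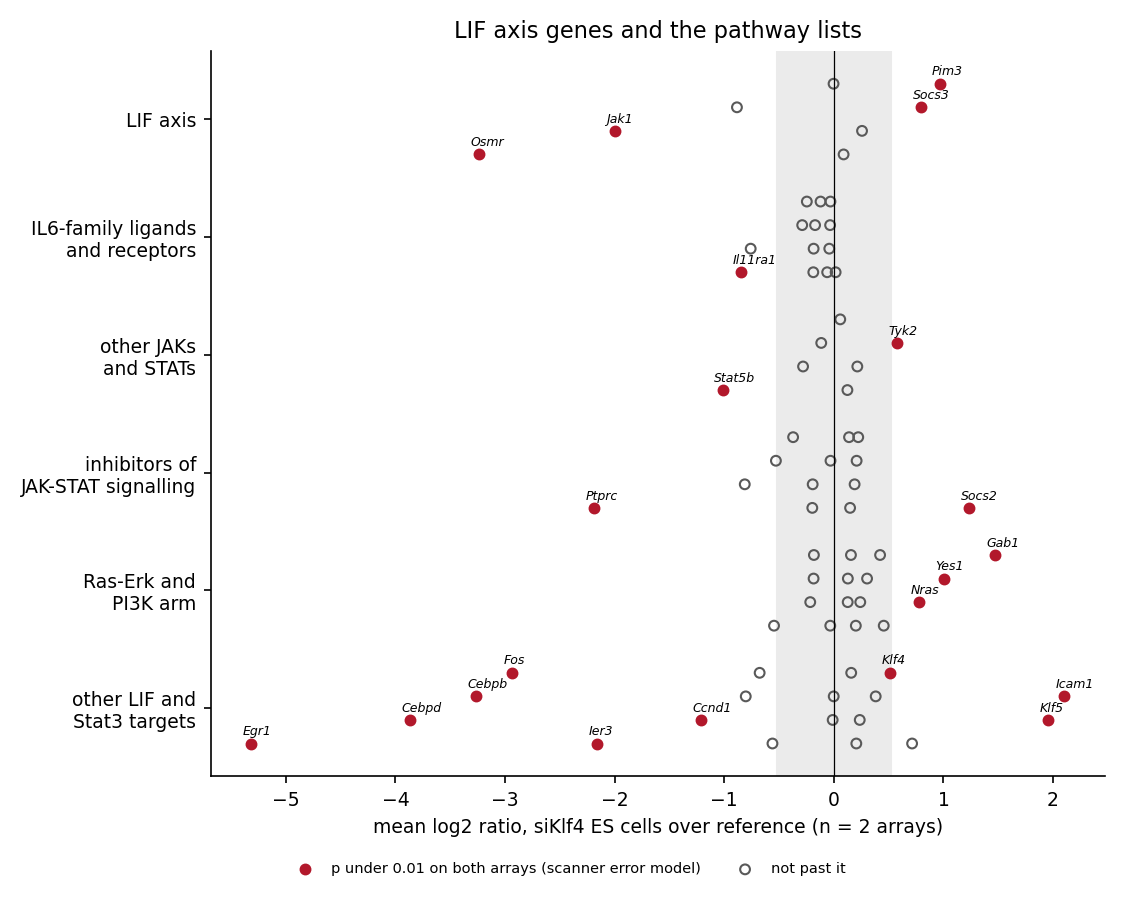
Mean log2 ratio of siKlf4 ES cells over the reference (horizontal axis, n = 2 arrays) for the LIF axis and the 5 pathway lists, a point per gene. Filled, named points had p under 0.01 on both arrays in the scanner software's error model, and open points did not. The grey band is the range of negative control spots. The list of ligands and receptors runs from -0.85 to 0.02 and that of other JAKs and STATs from -1.02 to 0.57. The target genes spread from -5.32 to 2.10.

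The labelled cell type fitted its markers: 12 of 14 ES cell markers were at least 2-fold higher and 0 lower, at a median log2 ratio of 3.59. For this and the other marker lists, the share over all probes at 2-fold was 5.08% higher and 5.19% lower. Fibroblast markers were lower in 7 of 8 cases (median -3.36) and macrophage and lymphocyte markers in 6 of 9 (median -2.12). The fibroblast list ran from -4.78 to -0.56 and the leukocyte list, which also holds Ptprc, from -3.80 to 0.36. Lox, Ptprc and the Lyz2 probe used here (the brighter over both channels) were not above the control limit in the ES cells, while a second Lyz2 probe was above it on both arrays and stood at -0.47. Trophectoderm markers were 2-fold lower in 3 of 7 cases, and primitive endoderm markers were lower in 4 and higher in 1 of 10. Of those 4, Afp did not clear the control limit in the ES cells on either array. The error model called 3 primitive endoderm markers lower and 0 higher, where 6.42% and 8.39% of all probes were. It did not call the higher gene, Lama1. Mesoderm markers gave 0 of 7 in either direction by limma at 2-fold and by the error model. Without the size limit 2 of them were higher and 3 lower at limma's unadjusted p under 0.05, where 33.5% and 33.6% of all probes were. Neural markers gave 1 of 7 higher at 2-fold, the tubulin gene Tubb3 at 1.83. Most fibroblast and leukocyte markers stood low against the pool, as did Osmr and Jak1. Any link between them was not tested.

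Leaving Lifr aside, the ratios kept their sides of 0 under other processing, apart from Pim1, whose value crossed 0 within -0.12 to 0.01. Across 9 alternative settings Osmr ran from -3.47 to -2.10, Jak1 from -2.15 to -1.70, Socs3 from 0.63 to 0.82 and Pim3 from 0.89 to 0.97. Some of these settings cannot change the ratios of these genes, as set out below.

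**Figure D4:**
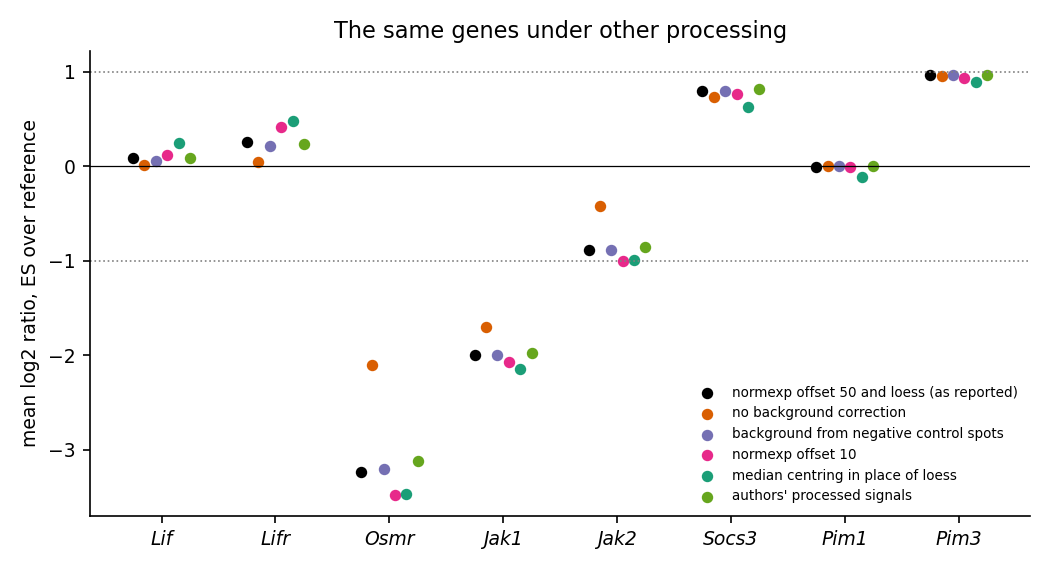
Mean log2 ratio of each gene (vertical axis) under the reported processing and 5 alternatives, a colour per setting, with dotted lines at 2-fold. Osmr and Jak1 lie below the lower line under all 6 settings shown, Pim3 lies just under the upper line under all 6, and Jak2 reaches the lower line with an offset of 10.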

How the data were processed

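The authors scanned each array and extracted spots with Feature Extraction A.7.5.1, per the file headers; the deposited intensity columns give mean spot and local background signals, and processed signals after background subtraction and LOWESS dye normalization. The same deposited files give the log10 ratio of red over green and the p-value of each spot's ratio from the software's error model. The deposited series table holds log10 values (column medians 2.918 and 2.921) that equal the mean log10 red signal of the 2 arrays minus that log ratio, within 3e-04 for 99.62% and 99.61% of probes; the labels do not state how it was made.

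Mean signals were corrected by normexp (offset 50) on the local background median and normalised by loess within each array with limma 3.58.1 in R 4.3.3, control spots at weight 0. Ratios are log2 of ES cells (Cy3) over reference (Cy5). Outlier-flagged spots removed 24 of 21052 gene probes. Mean ratios were tested against 0 with lmFit and eBayes (4.24 prior and 1 residual degrees of freedom), and intervals are at 95% from the same fit. These intervals hold array spread only, not the shifts that background correction or normalisation can bring. The fit was tested on simulated data with known changes, in which unchanged probes were centred on 0. That setting lacks the shifts seen at the negative control spots, so it cannot show how the fit handles them. Limits for dim probes are the 95th percentile of 162 negative control spots. Precision is limited by the 2 arrays, which share 1 dye orientation, so any dye effect stays in every ratio.

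Names came from RefSeq accessions (GRCm38.p6 table, names only; 10422 probes matched), with the brightest probe of a gene. Of each pathway list, up to 4 genes were named, those past 2-fold first by size. The listed genes, gene lists and call rules were chosen with earlier results of these data known. The error model was added after the data were seen, and its p-values are not adjusted for the number of probes.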

Additional observations from a re-analysis of the deposited data

How the results depend on the processing

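No paired analysis was possible because all samples form 1 group. Signs and calls at both thresholds were kept for Osmr, Jak1, Socs3 and Pim3 under every alternative that gave a value, among them other background corrections, offset, centring, the authors' processed signals and the deposited table. Averaging a gene's probes, keeping only probes above the controls and keeping outlier-flagged spots left these ratios unchanged and could move at most the p-values. The deposited table gave nearly the same ratios as the processed signals. Pim1, which was not called, changed sign to 0.0058 without background correction, 0.0030 with background from the negative control spots, 0.0049 with the processed signals and 0.0051 with the deposited table. Jak2 reached 2-fold with an offset of 10 (-1.003), and Lif passed limma with median centring in place of loess (0.25, adjusted p = 0.00661, range over the alternatives 0.00661 to 0.507); the cause was not tested. With one array left out there is no test: Osmr ranged from -3.47 to -3.00 and Lif from 0.0037 to 0.17. Lifr, under the negative control limit in both channels, is not read for stability. Over all probes, 2-fold calls fell from 1068 higher and 1092 lower to 510 and 467 without background correction. Among the listed genes, signal over background limits Osmr, Jak2, Lif and Lifr most.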
